A study of Mus musculus with 8 samples.

Results

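Of the 57417 consensus regions of open chromatin in a panel of 4 mouse breast cancer lines, 9700 (16.89%) were peaks of the eribulin-resistant line and of no other line. A region was counted here when it overlapped, by at least 1 bp, a peak of the eribulin-resistant line and no peak of the other 3 lines. These 9700 regions are called ERI-only regions below. For comparison, 20362 regions were peaks of the eribulin-resistant line and at least 1 other line, 18043 were peaks of all 4 lines, and 15470 were peaks of every line but the eribulin-resistant one.

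The data were ATAC-seq libraries, in which the transposase Tn5 inserts adapters into accessible DNA. All lines derive from PB3, a breast cancer line of mouse that the labels give as negative for the oestrogen, progesterone and Her2 receptors, and the series is about a therapeutic shift from a mesenchymal to an epithelial state. PB3-Parental was untreated. PB3-ERI-R, PB3-PAC-R and PB3-VIN-R were obtained by treating cells with eribulin, paclitaxel or vinorelbine, each at 300, 500 and 800 nM, to give resistant clones; the labels do not say how many clones a line holds or whether drug was present at harvest. Each line had 2 libraries, which the labels do not describe as separate cultures, so the p-values reflect the spread between libraries only, and that spread may be technical.

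Counts over the consensus regions totalled 10521964 and 13419873 in PB3-ERI-R and 13774822 to 24052237 in the other 6 libraries. The PB3-ERI-R libraries stood apart from all others. Across regions, their correlation with libraries of other lines was 0.1326 to 0.2303, against 0.9477 to 0.9816 between libraries of the other 3 lines. Drug, clonal history and line cannot be told apart as sources of this difference, since eribulin resistance is represented by 1 line.

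Eribulin, paclitaxel and vinorelbine all act on microtubules: eribulin and vinorelbine block their growth and paclitaxel stabilises them. Epithelial cells are held together by E-cadherin, claudins and desmosomes and are maintained by transcription factors such as the grainyhead-like, ESE-type ETS and AP-2 families. The microRNAs of the miR-200 family and miR-205 repress Zeb1 and Zeb2, transcription factors that silence epithelial genes, and loss of these microRNAs accompanies the change of epithelial into mesenchymal cells.

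ERI-only regions lay at the loci of these microRNAs, whose mature sequences are shown because 5 of them fall into 2 groups by seed. The letters are from RefSeq (GRCm38.p6), and capitals mark the seed, bases 2 to 8.
miR-200a-3p: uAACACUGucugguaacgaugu
miR-141-3p: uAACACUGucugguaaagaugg
miR-200b-3p: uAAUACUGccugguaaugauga
miR-200c-3p: uAAUACUGccggguaaugaugga
miR-429-3p: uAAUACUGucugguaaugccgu
miR-205-5p: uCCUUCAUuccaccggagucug
miR-203-3p: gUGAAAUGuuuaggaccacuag
miR-200a-3p and miR-141-3p share one seed, and miR-200b-3p, miR-200c-3p and miR-429-3p share the other. The family is made from 2 clusters, on chromosomes 4 and 6, and both had an ERI-only region. These microRNAs were chosen after their values were seen.

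At the chromosome 4 cluster the ERI-only region, chr4:156059332-156060109, lay 3.58 kb upstream of the Mir200b hairpin and 4.35 kb upstream of Mir200a. It had 77.8 and 60.0 CPM (counts scaled by the effective library size) in PB3-ERI-R, against 2.11 and 1.06 in PB3-Parental, 1.60 and 1.03 in PB3-PAC-R, and 1.72 and 1.79 in PB3-VIN-R. At the chromosome 6 cluster, chr6:124718039-124719374 covered the Mir200c hairpin and began 0.054 kb upstream of Mir141. It had 60.5 and 44.4 CPM in PB3-ERI-R and 1.44 to 2.14 CPM in the other 6 libraries. In both regions the PB3-ERI-R libraries were high and no other library came near them. A second region near the chromosome 6 cluster, chr6:124711785-124712796, was a peak of all 4 lines and had 66.9 and 73.4 CPM in PB3-ERI-R within the 51.5 to 74.2 CPM of the other libraries.

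The region upstream of Mir205 by 2.43 kb, chr1:193509963-193510384, had 57.5 and 43.2 CPM in PB3-ERI-R and 0.0602 to 0.416 CPM elsewhere. The region 0.016 kb upstream of Mir203, the hairpin of a microRNA of stratified epithelium, had 26.8 and 23.4 CPM in PB3-ERI-R and 2.67 to 5.66 CPM elsewhere. The region at Mir205 was thus near 0 in the other lines, and the region at Mir203 was low but measurable in them. Levels of the microRNAs themselves were not measured here. Over all microRNAs, 61 of the 415 hairpins that had any consensus region within 5 kb had an ERI-only region there (14.7%). The 16.89% over all regions counts regions and not hairpins. A hairpin can have several regions and hairpins can share a region, so 16.89% is only a rough reference.

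Over all 9700 regions, the median level was 23.2 and 19.9 CPM in the PB3-ERI-R libraries, 1.20 and 1.33 in PB3-Parental, 1.23 and 1.03 in PB3-PAC-R, and 1.14 and 0.957 in PB3-VIN-R. The mean of the PB3-ERI-R libraries ranged from 1.84 to 304 CPM, with 90% of regions between 8.74 and 63.9 CPM. Both PB3-ERI-R libraries lay above all 6 others in 9671 of the 9700. The regions were chosen by the peak calls of the 4 lines, which were made from the same libraries, so these levels and the fold changes that follow are a description.

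**Figure D1:**
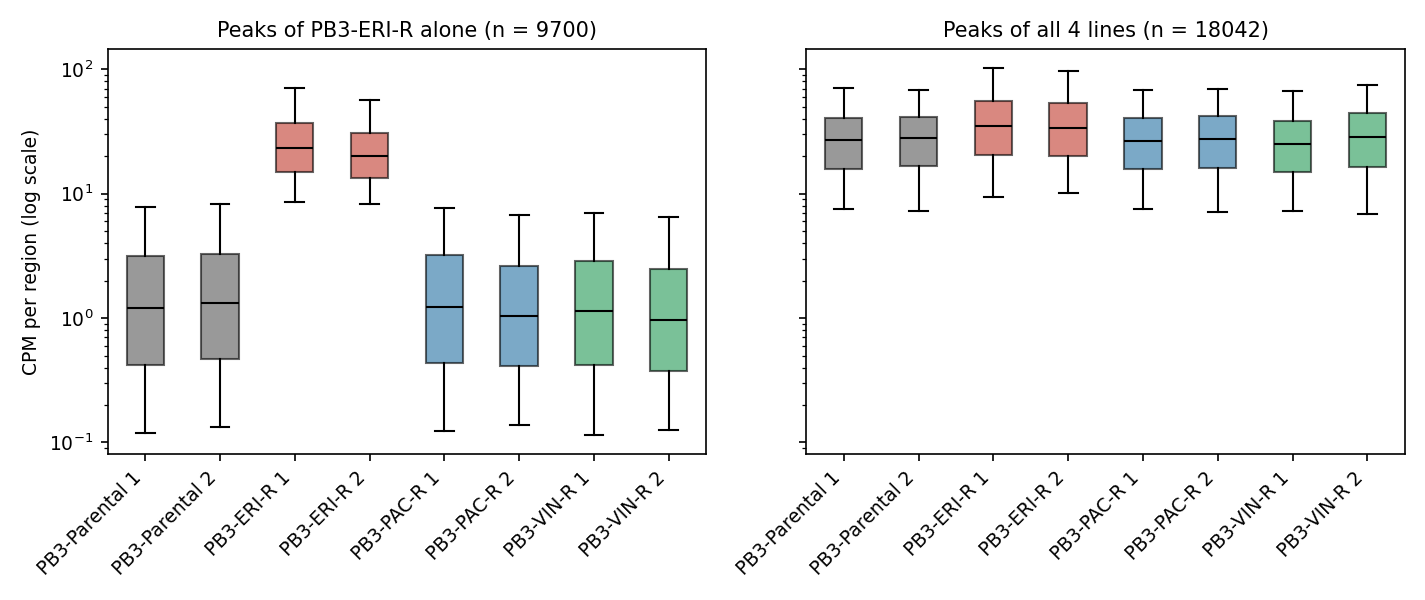
CPM per region (log axis) in each library, for the 9700 peaks of PB3-ERI-R alone and the 18042 tested peaks of all 4 lines. Boxes span the quartiles with the median as a line, and whiskers reach the 5th and 95th percentiles. Medians of the ERI-only regions are 23.2 and 19.9 CPM in PB3-ERI-R and 0.957 to 1.33 CPM in the other 6 libraries, while those of the peaks of all 4 lines are 34.8 and 33.9 CPM in PB3-ERI-R and 25.2 to 28.7 CPM in the others.

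edgeR's quasi-likelihood test with Benjamini-Hochberg adjustment over 57415 regions called 9645 of the 9700 higher in PB3-ERI-R than in PB3-Parental and 0 lower, where 35.4% of all regions were called higher and 37.6% lower. Against PB3-PAC-R it called 9643 higher (35.3% of all regions), and against PB3-VIN-R 9656 (35.5%). The median log2 fold change was 4.18, 4.29 and 4.45, in that order, beside 0.07, 0.04 and 0.07 over all regions. These counts restate the rule and are read no further.

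The other lines were not equally closed at these regions. Their mean level was under 1 CPM in 4420 regions (45.6%), from 1 to under 5 CPM in 4220, and 5 CPM or more in 1060 (10.9%). PB3-Parental had no count at all in 33 of them, PB3-PAC-R in 29 and PB3-VIN-R in 25. Thus nearly all ERI-only regions had reads in lines that had no peak there.

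The ERI-only regions with the highest level outside PB3-ERI-R were at Egr1, Zbtb7b, Hmga2, Zfhx3 and Rhbdf1. At Egr1, an immediate early transcription factor gene, the region had 198 and 48.3 CPM in PB3-ERI-R beside 79.7 and 19.4 in PB3-Parental, 101 and 32.6 in PB3-PAC-R, and 89.7 and 31.6 in PB3-VIN-R. Library 1 was the higher one in every line, and PB3-ERI-R was the highest line within each library number. The libraries of different number overlapped between lines, and the log2 difference of 1.32 from PB3-Parental did not pass (edgeR adjusted p = 0.0967). At Hmga2, a chromatin architectural factor of embryonic and mesenchymal cells, the values were 93.2 and 76.2 CPM in PB3-ERI-R and 23.2 to 29.5 CPM elsewhere, without overlap. Zbtb7b had 40.6 and 36.5 CPM in PB3-ERI-R and 24.4 to 30.2 elsewhere, a log2 difference of 0.44 from PB3-Parental, without overlap.

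At the threshold of the peak calls, the 241 ERI-only regions whose best peak score was at most 840, on the lists' scale from 830 to 1000, had a median of 12.3 CPM in PB3-ERI-R and 1.26 CPM in the other lines. Just outside the rule, 88 regions shared with a single other line by a peak of at most 840 had medians of 21.9 and 6.20 CPM. A peak of another line lay within 500 bp of 544 ERI-only regions.

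In the authors' deposited peak list of PB3-ERI-R, the ERI-only regions had a median fold enrichment of 18.2, against 19.4 for its peaks shared with another line. In the authors' deposited list, 63.9% of the ERI-only regions and 80.7% of the shared ones held the top score of 1000. Regions over 1 kb from any gene end were closer: in the authors' deposited list the median folds there were 18.6 and 19.6, and 64.3% and 74.0% held the top score.

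ERI-only regions were mostly far from gene ends. Only 863 (8.90%) lay within 1 kb of either end of a protein-coding gene, against 21.6% of all regions and 48.0% of the peaks of all 4 lines. A further 42.7% were elsewhere inside a gene, 27.4% outside but at most 50 kb away, and 21.0% further away. The peaks of every line but PB3-ERI-R had nearly the same make-up, with 8.64% near a gene end and 46.6% inside a gene. Widths were also alike, with a median of 457 bp for the ERI-only regions, 455 bp for the peaks of every other line, and 678 bp for the peaks of all 4 lines.

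**Figure D2:**
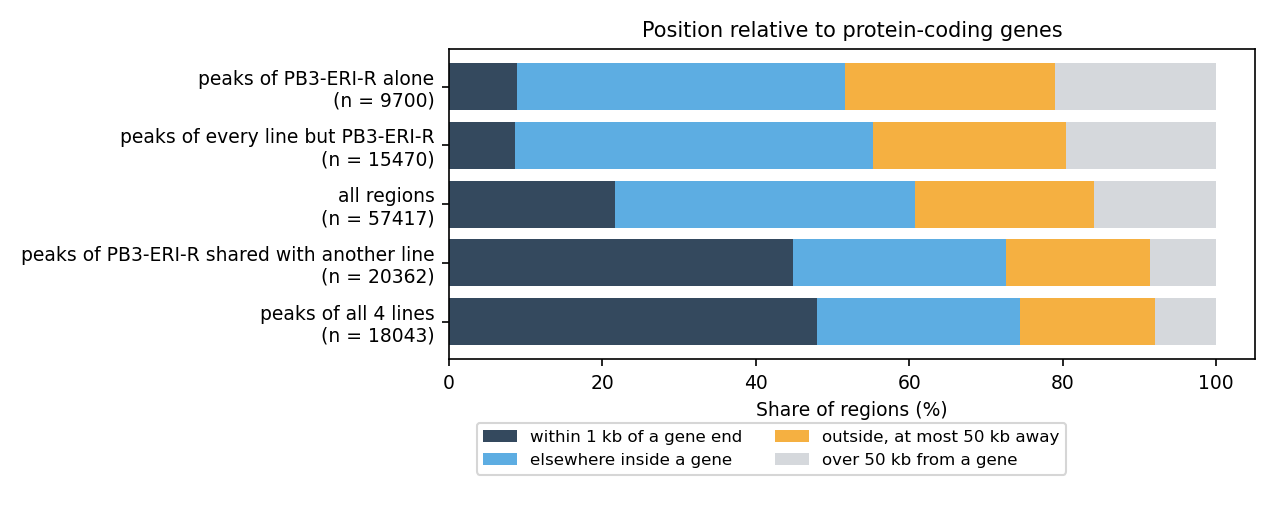
Share of regions (%) by position relative to protein-coding genes of RefSeq GRCm38.p6, for 5 sets of regions with their numbers. The ERI-only regions, with 8.90% near a gene end, resemble the peaks of every line but PB3-ERI-R (8.64%) and not the peaks of all 4 lines (48.0%).

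The few ERI-only regions at promoters lay on promoters with fewer CpG dinucleotides than the promoters open in all lines. Of the 300-base windows in RefSeq (250 bases before and 50 after a start), ERI-only regions overlapped 425, at 395 genes. These held a median of 14 CpG, against 23 in the 8775 windows overlapped by peaks of all 4 lines, 13 in all 21263 protein-coding windows, and 18 in the 671 overlapped by peaks of every line but PB3-ERI-R. Windows with at most 5 CpG were 23.3% of those at ERI-only regions and 2.12% of those at peaks of all 4 lines. GC content was 60.3% and 62.3%, so the difference lay in CpG more than in base composition.

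Motif letters were counted in these windows on both strands, and matches of different motifs may overlap. The E-box CANNTG was in 75.5% of the windows at ERI-only regions, 59.6% of those at peaks of all 4 lines and 69.0% of all windows. The CCAAT box (CCAAT) was in 32.7%, 40.9% and 38.2%, and the TATA box (TATAAA) in 9.88%, 5.41% and 12.6%. The AP-1 letters TGANTCA were in 6.59%, 4.21% and 6.99%; peaks of every line but PB3-ERI-R had them in 11.9% of their windows. The ETS core GGAA was in 94.1%, 95.5% and 95.7%, and the grainyhead-like letters AACCNGGTT in 0.471%, 0.274% and 0.254%. For the E-box, CCAAT and AP-1, the windows at ERI-only regions were nearer to all windows than to those open in every line.

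Promoter windows are shown for 3 genes, each lying wholly within an ERI-only region, with capitals marking every match to the 6 motifs. Cldn3 encodes a tight junction claudin, Bmf a pro-apoptotic protein of the Bcl-2 family, and Fry a large protein of cell morphogenesis. The windows are chr5:134985964-134986263 on the plus strand, chr2:118544538-118544837 on the minus strand and chr5:150259680-150259979 on the plus strand.
Cldn3: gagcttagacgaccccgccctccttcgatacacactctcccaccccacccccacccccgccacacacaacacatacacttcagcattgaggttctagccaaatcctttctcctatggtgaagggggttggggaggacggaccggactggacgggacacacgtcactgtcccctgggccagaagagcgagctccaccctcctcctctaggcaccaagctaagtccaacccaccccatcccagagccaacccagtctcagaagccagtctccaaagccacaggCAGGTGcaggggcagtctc
Bmf: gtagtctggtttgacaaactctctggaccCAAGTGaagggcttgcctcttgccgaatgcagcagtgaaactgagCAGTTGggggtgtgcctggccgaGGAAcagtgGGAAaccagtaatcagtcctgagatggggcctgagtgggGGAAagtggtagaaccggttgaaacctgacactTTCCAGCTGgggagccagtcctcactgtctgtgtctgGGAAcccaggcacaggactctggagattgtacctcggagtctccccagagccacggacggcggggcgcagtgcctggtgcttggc
Fry: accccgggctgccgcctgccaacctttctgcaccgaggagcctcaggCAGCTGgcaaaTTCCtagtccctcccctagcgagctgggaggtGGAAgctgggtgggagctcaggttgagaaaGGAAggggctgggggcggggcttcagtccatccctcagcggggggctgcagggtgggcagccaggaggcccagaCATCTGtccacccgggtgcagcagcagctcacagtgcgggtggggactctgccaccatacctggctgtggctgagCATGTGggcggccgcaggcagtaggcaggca
The only motif letters in the Cldn3 window were 1 E-box, and the Bmf and Fry windows held E-boxes and ETS cores. At the Cldn3 promoter, PB3-ERI-R had 107 and 87.7 CPM, PB3-Parental 21.4 and 22.7, PB3-PAC-R 10.4 and 5.14, and PB3-VIN-R 12.9 and 6.53. The Bmf promoter had 81.4 and 67.5 CPM in PB3-ERI-R and 11.3 to 14.9 CPM in the other libraries. Both promoters had reads in every line, and the PB3-ERI-R libraries did not overlap the others.

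Within 50 kb of a protein-coding gene lay 7662 of the ERI-only regions, at 4383 of the 14945 genes that had any region. Of these genes, 2769 had a single ERI-only region and 232 had 5 or more. Of the 4383 genes, 2259 (51.5%) also held a peak of every line but PB3-ERI-R, beside 43.5% of all genes with a region, a comparison that does not allow for the number of regions per gene. At 61 genes with at least 3 regions, every region was ERI-only.

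Read by list, the share of ERI-only regions was highest at epithelial regulators. The gene lists were chosen with earlier results of these data known, and their shares are given beside the 16.89% over all regions and with no test. At 21 epithelial transcription and splicing factors, 53 of 108 regions (49.1%) were ERI-only, spread over 16 genes. Ehf and Elf5, ETS factors of epithelia, had 8 of 8 and 4 of 4, and Tfcp2l1, of the grainyhead superfamily, 4 of 4. Esrp1, which directs epithelial splicing, had 5 of 5, Grhl2 8 of 11, Tfap2c 6 of 7 and Tfap2a 5 of 9. The list was not uniform: Klf4, Gata3 and Foxa1 had 0 of 7, 0 of 7 and 0 of 1, and at Klf4 6 of the 7 regions were peaks of every line but PB3-ERI-R.

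At Elf5, which drives the luminal secretory fate in mammary gland, the highest region (chr2:103389966-103391023, 21.1 kb from the gene) had 174 and 123 CPM in PB3-ERI-R and 0.599 to 0.822 CPM in the other libraries. The 8 regions at Ehf ran from 23.3 to 74.0 CPM on average in PB3-ERI-R and did not exceed 2.90 CPM in any other library. In all of these the groups did not overlap. The 8 regions at Grhl2, a direct activator of E-cadherin and claudin genes, averaged 12.2 to 74.2 CPM in PB3-ERI-R with at most 3.19 CPM in any other library.

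At 38 epithelial adhesion, junction and keratin genes, 60 of 164 regions (36.6%) were ERI-only and 15.9% were peaks of every line but PB3-ERI-R. Dsp, the desmosome's desmoplakin, had 6 of 7, and Marveld2, of tricellular junctions, and Spint2, a protease inhibitor of epithelia, 3 of 3 each. Other genes of the list had none. Pkp2 had 0 of 5, with 3 peaks of every line but PB3-ERI-R, and Cldn1 and Krt18 had 0 of 4 each. Cdh1, which encodes E-cadherin, had 3 of 10, all overlapping the gene. The highest of these, chr8:106603127-106603867, spanned an end of the gene. The promoter windows held no start of Cdh1, so whether this end is the start was not read from them. The region had 58.8 and 53.6 CPM in PB3-ERI-R beside 3.79 and 4.66 in PB3-Parental, 2.78 and 2.81 in PB3-PAC-R, and 2.17 and 2.16 in PB3-VIN-R. A Cdh1 region that was a peak of all 4 lines, chr8:106619412-106620152, had 77.6 and 67.2 CPM in PB3-ERI-R and 33.2 to 43.6 CPM elsewhere, so the locus held open chromatin in the other lines too. Of the 10 Cdh1 regions, 2 were peaks of every line but PB3-ERI-R. At chr8:106588634-106589071, outside the gene, PB3-ERI-R had 1.67 and 1.88 CPM and the other libraries 7.67 to 15.3 CPM. At chr8:106647404-106647702 it had 7.06 and 5.87 CPM and the others 3.95 to 6.17 CPM.

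Epcam, an epithelial surface adhesion protein, had 3 of 5. Its highest region, chr17:87636192-87637356, lay inside the gene, 0.213 kb from its start. It had 64.2 and 58.4 CPM in PB3-ERI-R and 4.38 to 9.78 CPM elsewhere. The region was low but not empty in the other lines.

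**Figure D3:**
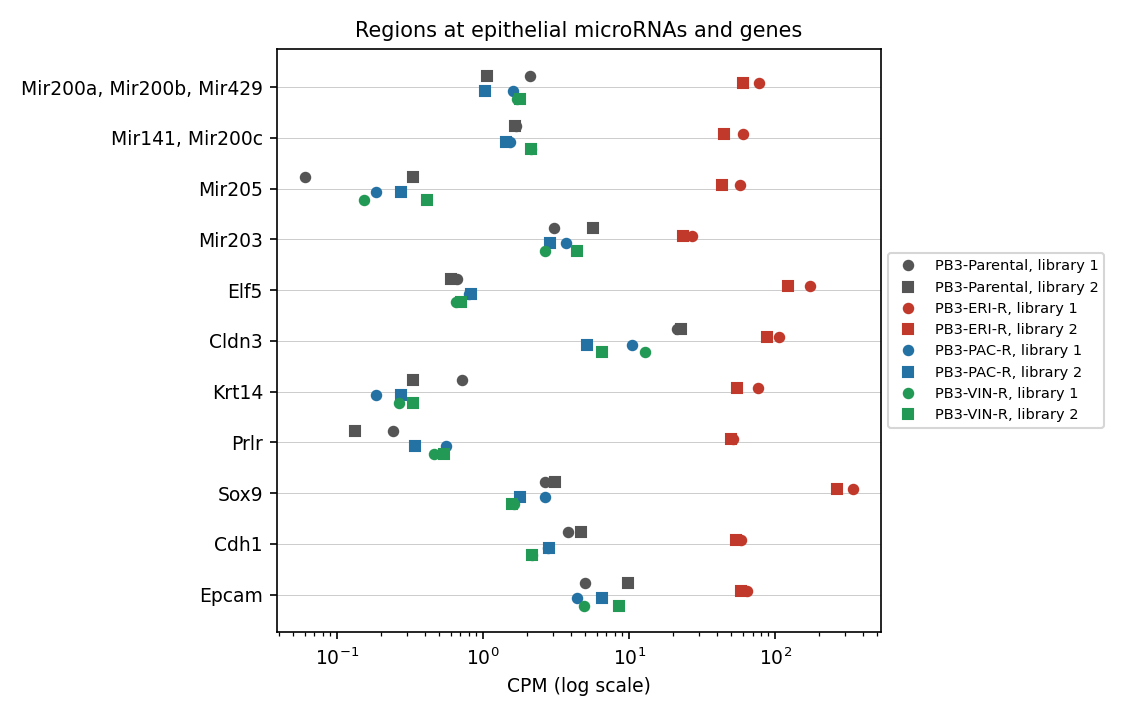
CPM (log axis) of 11 ERI-only regions, 1 point per library, with colour for the line and shape for the library number. They lie at epithelial microRNA loci, at genes of the epithelial and mammary lists, and at Sox9. Sox9 is on the EMT and developmental lists and on neither epithelial list. In each row both PB3-ERI-R points lie to the right of the 6 others, which range from 0.0602 CPM at Mir205 to 22.7 CPM at Cldn3.

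Loci of both mammary lineages held ERI-only regions. At luminal genes 17 of 49 regions (34.7%) were ERI-only, with Prlr, the prolactin receptor, at 5 of 5, and 18.4% were peaks of every line but PB3-ERI-R. Gata3, also on the luminal list, had 0 of 7, and 4 of its regions were peaks of every line but PB3-ERI-R. At basal and myoepithelial genes 17 of 84 (20.2%) were ERI-only, near the share over all regions, with 4 of 5 at Igfbp2 and 2 of 2 at Mme. Another 28 (33.3%) were peaks of every line but PB3-ERI-R, among them 6 of 10 at Lgr6, 6 of 13 at Egfr and 4 of 9 at Trp63. The highest Prlr region had 51.7 and 49.7 CPM in PB3-ERI-R and 0.133 to 0.556 CPM elsewhere. A region 2.27 kb from Krt14, a basal keratin gene, had 76.9 and 55.1 CPM in PB3-ERI-R and 0.185 to 0.722 CPM elsewhere. The Prlr and Krt14 regions were nearly without reads in the other lines.

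The receptor genes that the labels describe as negative had too few consensus regions for a share of ERI-only regions to be read. Esr1, the oestrogen receptor gene, had 0 ERI-only regions of 5. Erbb2, which encodes Her2, had 1 of 2, inside the gene, with 44.9 and 35.1 CPM in PB3-ERI-R and 0.411 to 1.14 CPM elsewhere, while its promoter region was a peak of all 4 lines at 29.3 to 36.0 CPM in the 8 libraries. No consensus region was assigned to Pgr.

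Mesenchymal and extracellular matrix genes had the opposite balance, with 14 of 124 regions ERI-only (11.3%) and 55 (44.4%) peaks of every line but PB3-ERI-R. Over all regions the latter were 26.9%. At Vim, the gene of the mesenchymal intermediate filament vimentin, both kinds stood side by side. The region over its start, chr2:13573370-13574881, had 3.07 and 4.32 CPM in PB3-ERI-R and 97.6 to 130 CPM in the other libraries. The next region, inside the gene at chr2:13575941-13576414, was ERI-only, with 69.9 and 68.3 CPM in PB3-ERI-R and 8.03 to 12.6 CPM elsewhere. A second ERI-only region 4.98 kb outside the gene had 24.0 and 19.7 CPM in PB3-ERI-R and 0.0665 to 0.229 CPM elsewhere. EMT transcription factors had 19 of 101 (18.8%), near the share over all regions.

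**Figure D4:**
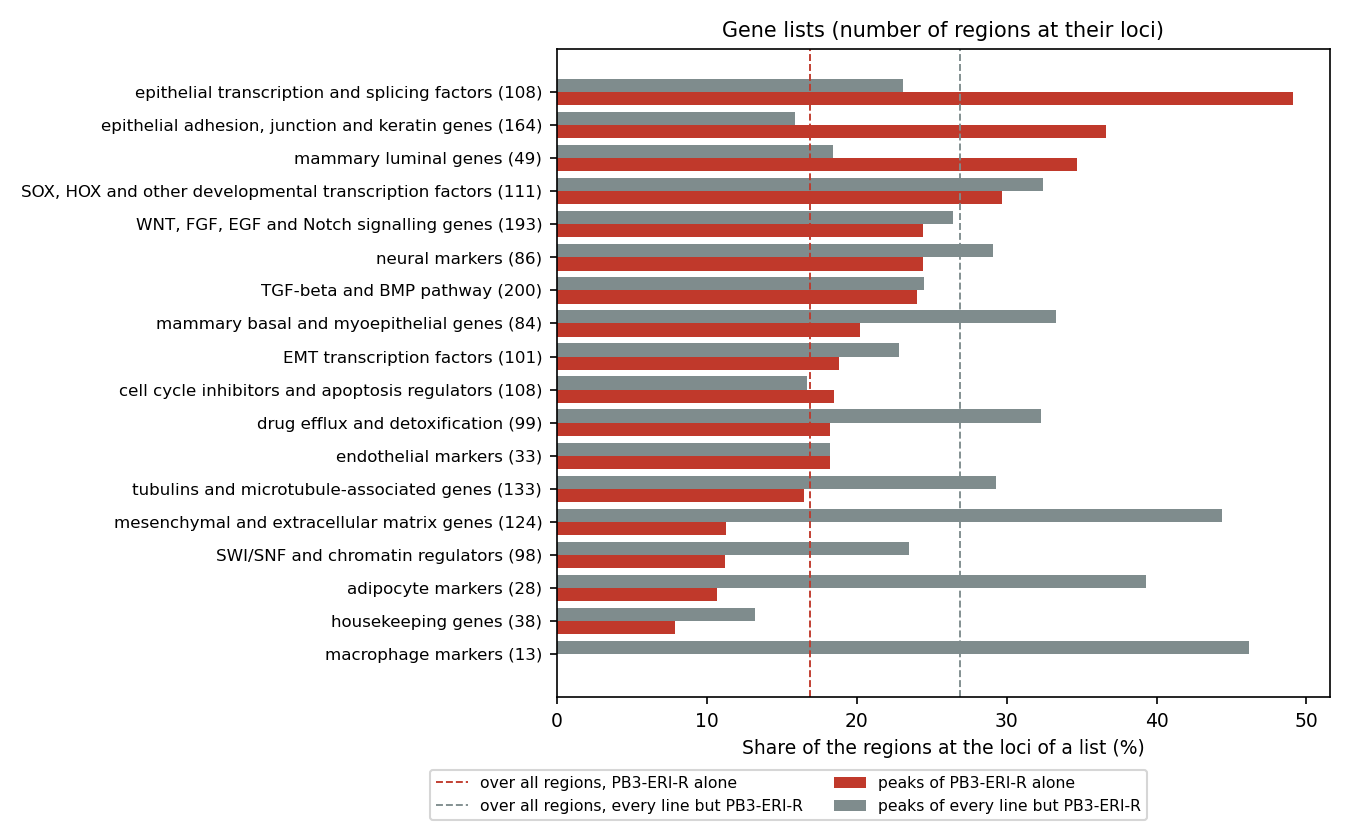
Share (%) of the regions at the loci of each gene list that are peaks of PB3-ERI-R alone or peaks of every line but PB3-ERI-R, with the number of regions in brackets. Dashed lines give the shares over all regions, 16.89% and 26.9%. Epithelial transcription and splicing factors have the highest ERI-only share (49.1%), and mesenchymal and matrix genes have 11.3% and 44.4%.

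Developmental and signalling genes had intermediate ERI-only shares. In the developmental list, 36 regions (32.4%) were peaks of every line but PB3-ERI-R, beside 26.9% over all regions. In the WNT, FGF, EGF and Notch list 51 regions (26.4%) were such peaks. In the TGF-beta and BMP list 49 (24.5%) were, so both signalling lists were near the share over all regions. Sox5 had 15 such regions of 30, Meis1 7 of 11 and Smad3, a TGF-beta signal transducer, 9 of 18. At SOX, HOX and other developmental factors 33 of 111 regions (29.7%) were ERI-only, with 7 of 10 at Sox6 and 3 of 3 at Sox11. At WNT, FGF, EGF and Notch genes it was 47 of 193 (24.4%), with 6 of 6 at Fgfr2, a receptor with an epithelial splice form, 5 of 8 at Fzd7, a WNT receptor, and 4 of 8 at Tgfa, an EGF receptor ligand. At the TGF-beta and BMP pathway it was 48 of 200 (24.0%), with 6 of 12 at the ligand Tgfb2 and 7 of 17 at the co-receptor Tgfbr3. The highest Fzd7 region had 74.8 and 69.2 CPM in PB3-ERI-R and 0.247 to 0.458 CPM elsewhere. The highest Wnt7b region had 115 and 68.9 CPM and 0.832 to 2.65 CPM.

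Genes tied to the drugs were near the share over all regions. Tubulins and microtubule-associated genes had 22 of 133 (16.5%). The highest region at Dclk1, which encodes a kinase that binds microtubules, had 80.7 and 57.4 CPM in PB3-ERI-R and 1.56 to 3.64 CPM elsewhere. Drug efflux and detoxification genes had 18 of 99 (18.2%). Abcb4, a phospholipid transporter next to the drug efflux genes Abcb1a and Abcb1b in mouse, had 4 of 4, Abcb1a 1 of 8 and Abcb1b 0 of 3. At Abcb1a, 5 of the 8 regions were peaks of every line but PB3-ERI-R. These genes lie on chromosome 5, where peaks of all 4 lines had a median log2 fold change of 0.76 over PB3-Parental, beside 0.37 over all such peaks. That median varied along the chromosome, from 0.26 to 1.97 among its 10 Mb windows, so 0.76 need not hold at these genes. It was highest from 0 to 10 Mb, where 28.1% of regions were ERI-only. The highest Abcb4 region had 45.2 and 54.4 CPM in PB3-ERI-R and 2.04 to 4.33 CPM elsewhere. SWI/SNF and chromatin regulators had 11 of 98 (11.2%), cell cycle inhibitors and apoptosis regulators 20 of 108 (18.5%), and housekeeping genes 3 of 38 (7.89%).

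Markers of other cell types did not share a direction. Macrophage markers had 0 ERI-only regions of 13, endothelial markers 6 of 33 (18.2%), adipocyte markers 3 of 28 (10.7%) and neural markers 21 of 86 (24.4%). Summed over their regions, macrophage markers had 116 to 122 CPM in PB3-ERI-R and 168 to 211 CPM in the other libraries, and endothelial markers 884 to 1000 and 411 to 433 CPM. Neural markers had 967 to 1020 CPM in PB3-ERI-R and 742 to 816 CPM elsewhere, and adipocyte markers 388 to 440 and 372 to 401 CPM. Without the 11 regions of Flt1, on chromosome 5 where shared peaks were also higher, the endothelial sum was 266 to 270 CPM in PB3-ERI-R and 293 to 308 CPM elsewhere, so the higher sum rested on that locus.

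The longest run of consecutive ERI-only regions covered the Cdkn2a and Cdkn2b locus, which encodes the cell cycle inhibitors p16, p19Arf and p15. It held 21 regions over 2.25 Mb, chr4:89128152-91376744, from Mtap to Elavl2. The last of them, chr4:91376389-91376744 at Elavl2, lay far from the rest. The region before it ended at chr4:89528288, and no consensus region lay between. Summed counts were 7070 and 5671 in PB3-ERI-R beside 192 and 82 in PB3-Parental, 116 and 97 in PB3-PAC-R, and 1 and 1 in PB3-VIN-R. PB3-Parental had no count in 6 of the 21, PB3-PAC-R in 10 and PB3-VIN-R in 19.

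Of the 6 ERI-only regions with no count in any of the 6 other libraries, 5 lay in this run. The region over the start of Cdkn2b, chr4:89310517-89311248, had 611 and 460 counts (56.7 and 50.9 CPM) in PB3-ERI-R and 0 in each other library. Set against a floor of 3 counts over both PB3-Parental libraries (0.0948 CPM), it was at least 568-fold higher in PB3-ERI-R. The larger of 2 Cdkn2a regions, chr4:89294304-89294954, had 314 and 316 counts and 0 elsewhere, at least 338-fold higher than PB3-Parental on the same floor. Floors cover counting error only.

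Regions on either side of the run had counts in those 3 lines. At Mtap, the neighbouring region chr4:89105508-89105781 had 102 and 72 counts in PB3-Parental, 77 and 84 in PB3-PAC-R, with 150 and 137 in PB3-VIN-R and 47 and 60 in PB3-ERI-R. The next region beyond Elavl2, chr4:92311925-92312256, had 304 and 281 counts in PB3-Parental, 270 and 273 in PB3-PAC-R, with 480 and 370 in PB3-VIN-R and only 5 and 2 in PB3-ERI-R. Whether DNA copy number differed between the lines here was not tested.

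Clustering was common elsewhere. Single ERI-only regions, with a different kind of region on either side, made up 4779 (49.3%), and 153 runs of 5 or more held 1004. A run of 17 regions over 334 kb, chr2:103111687-103446075, covered Apip, Ehf and Elf5, with 8190 and 5574 counts in PB3-ERI-R beside 213 and 170 in PB3-Parental, 230 and 191 in PB3-PAC-R, and 355 and 297 in PB3-VIN-R. A run of 17 at Auts2 on chromosome 5, a gene of neuronal development, had 7079 and 4251 counts in PB3-ERI-R and 49 to 250 in the other libraries. All libraries had reads in these runs, and the PB3-ERI-R libraries were far above the others.

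A run of 15 at Rxfp2 and Fry on chromosome 5 had 6738 and 4596 counts in PB3-ERI-R and 225 to 399 elsewhere. Runs of 14 lay beside Sox11 on chromosome 12, with 4296 and 3201 counts against 25 to 52, and across Igfbp5 and Tns1 on chromosome 1, with 5892 and 3772 against 38 to 102. By gene, Auts2 had 18 ERI-only regions of 24, Fry 14 of 15, Shank2 13 of 26, Rad51b 13 of 37, Cdkal1 and Stard13 12 of 22 and 12 of 35, and Sema3d, Rbms3, Gmds and Pde4d 11 each, of 17, 20, 25 and 38. Edar, the ectodysplasin receptor of skin appendages, had 9 of 9.

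The ERI-only regions with the highest level in PB3-ERI-R were at Sox9, Cdk8, Medag, Stard13, Tpcn2, Stat4, Pgs1, Cyth3, Ppp1cb and Baiap2l1, of which 6 lie on chromosome 5. Sox9, a transcription factor of progenitor cells, had 343 and 265 CPM at chr11:112766904-112768249, 14.0 kb from the gene, and 1.58 to 3.13 CPM in the other libraries. The region nearest Medag had 320 and 225 CPM and 0.749 to 0.998 CPM elsewhere. The region nearest Cdk8, a kinase of the Mediator complex, had 332 and 254 CPM and 1.03 to 4.33 CPM elsewhere.

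Most of these 10 lay where shared peaks were also higher in PB3-ERI-R. In 10 Mb windows, the reference was the median log2 fold change, PB3-ERI-R over PB3-Parental, of regions that were peaks of all 4 lines and so not ERI-only. It was 1 or more in 15 of the 242 windows with at least 20 such regions: 7 on chromosome 5, 6 on X, 1 on 11 and 1 on 14. In those 15 windows, 846 of 2948 regions (28.7%) were ERI-only, against 16.3% elsewhere. Of the 10 highest regions above, 8 lay in them, but of all ERI-only regions only 8.72% did, and 8854 lay elsewhere.

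Across the 242 windows, the ERI-only share and that median had a Pearson r of 0.62 and a Spearman rho of 0.45. This is a description: the windows share the same libraries and scaling. By chromosome the ERI-only share ran from 12.3% on 17 to 24.1% on 5, with 22.6% on X, and the median of the shared peaks was 0.76 on 5 and 0.91 on X. Copy number was not tested. All 3 regions of chromosome Y were ERI-only; the highest had 82.8 and 96.4 CPM in PB3-ERI-R and 3.13 to 4.03 CPM elsewhere, and reads from near-identical copies could be placed there.

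**Figure D5:**
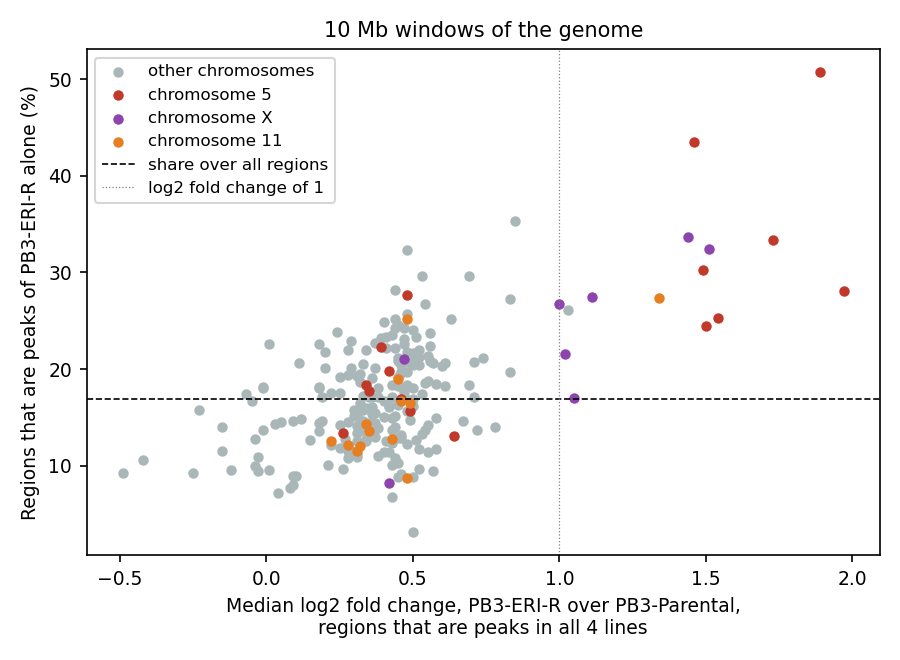
Share (%) of regions that are peaks of PB3-ERI-R alone against the median log2 fold change of peaks of all 4 lines, in 242 windows of 10 Mb. The dashed line is the share over all regions, 16.89%, and the dotted line a log2 fold change of 1. Of the 15 windows at or beyond the dotted line, 7 are on chromosome 5 and 6 on X.

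Regions shared by all lines were also compared next to clusters of ERI-only regions. The same peak calls set both kinds of region, and the genes were picked by their ERI-only regions. Neighbouring regions also share the same libraries and scaling, so the counts below are a description. At the 232 genes with 5 or more ERI-only regions, 618 regions were peaks of all 4 lines. Of these, 357 (57.8%) were higher and 57 (9.22%) lower in PB3-ERI-R than in PB3-Parental by edgeR's quasi-likelihood test (adjusted p under 0.05), against 44.1% and 8.97% of all 18043 such regions. Their median log2 fold change was 0.64 against 0.37. Outside the 15 windows the share was 51.5% (267 of 518) against 41.6%, and the medians 0.50 and 0.35. With no scaling factor, which moved the median log2 fold change of all regions from 0.07 to -0.29, 250 of the 618 were higher and 103 lower, with a median of 0.28. The share of all 18043 regions under that setting is not given, so these counts have no reference.

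The other 3 lines were also compared with each other at the ERI-only regions. The rule asked that none of these lines had a peak there, and many of the regions had few counts outside PB3-ERI-R, so the numbers of calls are a description and are not read against the shares over all regions, which are printed for reference. Both comparisons with PB3-Parental share its libraries. PB3-VIN-R was called different from PB3-Parental at 91 of the 9700, 20 higher and 71 lower (0.388% and 0.289% of all regions; edgeR, adjusted p under 0.05). PB3-PAC-R was called different at 8, 2 higher and 6 lower (0.0314% and 0.054% of all regions), and PB3-VIN-R from PB3-PAC-R at 3, all lower (0.00174% of all regions higher and 0.00697% lower).

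These counts are small and unstable. Leaving out 1 library at a time gave 5 to 232 calls for PB3-VIN-R against PB3-Parental: 232 without PB3-Parental 1, 16 without PB3-Parental 2, 17 and 19 without PB3-ERI-R 1 and 2, 156 without PB3-PAC-R 2, and 11 and 5 without PB3-VIN-R 1 and 2. For PB3-PAC-R against PB3-Parental it gave 28 without PB3-Parental 1, 0 without either PB3-ERI-R library or PB3-PAC-R 2, and 3 or 4 without PB3-Parental 2, PB3-PAC-R 1 or either PB3-VIN-R library. For PB3-VIN-R against PB3-PAC-R it gave 11 without either PB3-Parental library and 0 without either PB3-ERI-R or PB3-VIN-R library.

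The region inside Reep3, a gene of endoplasmic reticulum shaping, had 4.57 and 4.26 CPM in PB3-Parental, 2.59 and 2.60 in PB3-PAC-R, and 0.839 and 0.749 in PB3-VIN-R. PB3-VIN-R was lower than PB3-Parental by -2.46 ± 0.26 (log2, SE; edgeR adjusted p = 0.00218). The region beside Col1a1, which encodes the alpha 1 chain of type I collagen, changed by -2.38 ± 0.29 (edgeR adjusted p = 0.00395) and that in Stpg2 by -2.59 ± 0.32 (edgeR adjusted p = 0.00459). In PB3-ERI-R the Reep3 region had 64.1 and 69.6 CPM, and the Col1a1 region 21.8 and 20.5 CPM.

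Higher in PB3-VIN-R were the regions at Hlx, a homeobox factor, with 0.482 and 0.932 CPM in PB3-Parental and 3.78 and 4.29 in PB3-VIN-R (log2 2.52 ± 0.34, edgeR adjusted p = 0.00631), and at Tmtc1 (log2 1.83 ± 0.28, edgeR adjusted p = 0.0104). Hlx was also higher in PB3-PAC-R, at 3.33 and 2.74 CPM (log2 2.11 ± 0.36, edgeR adjusted p = 0.0466). The PB3-PAC-R call at Hlx was made under 3 of 14 alternative settings and lost under the others, among them each other scaling and each left-out library. Of the PB3-VIN-R calls named here, Reep3 was made under all 14, Stpg2, Hlx and Tmtc1 under 13, each lost without PB3-VIN-R 2, and Col1a1 under 12, lost without either PB3-VIN-R library.

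Lower in PB3-PAC-R than in PB3-Parental was the region in Shroom3, a regulator of epithelial cell shape, with 4.76 and 4.73 CPM in PB3-Parental and 0.679 and 0.890 in PB3-PAC-R (log2 -2.59 ± 0.34, edgeR adjusted p = 0.0158). The regions at Tlx3, Spats2l and Atf7ip2 changed by -2.13 ± 0.31, -1.36 ± 0.22 and -2.32 ± 0.39 (edgeR adjusted p = 0.0211, 0.0417 and 0.0459). Tlx3 and Atf7ip2 were lower in PB3-VIN-R too, by -1.85 and -2.32 (edgeR adjusted p = 0.0104 and 0.0116). Between PB3-VIN-R and PB3-PAC-R, the region in F8 differed by -2.59 ± 0.35 (edgeR adjusted p = 0.0422), and the other 2 calls lay in the Cdkn2a run, where PB3-VIN-R had a summed count of 1 in each library. Of the 14 alternative settings, Shroom3 and Tlx3 were called lower in PB3-PAC-R under 10, Spats2l under 5, Atf7ip2 under 4 and F8 under 5; without either PB3-ERI-R library, or without PB3-PAC-R 2, none of these 5 was called. Spats2l, Atf7ip2 and F8 were also lost with DESeq2's size factors, with no scaling factor and with loess offsets.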

How the data were processed

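ATAC-seq was measured in 8 libraries, 2 per line, grouped by the line given in the labels. Per the submitters' processing notes, the tools included MACS2 2.1.1, Bowtie2 2.2.6, cutadapt 1.9.1, featureCounts and Picard on mm10 (GRCm38). Settings, and the choice between reads and fragments, are not stated in these sources. Raw counts per region and library were deposited by the authors as whole numbers. The deposited peak lists, 1 per line, hold a score, a fold enrichment (a ratio) and −log10 q values per peak, and the labels give an IDR threshold of 0.01. The deposited consensus list holds other values, the start and end of each region.

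Membership, the members' grouping and the gene lists were chosen with earlier results of these data known. Counts went through edgeR 4.0.16 under R 4.3.3: the low-count filter filterByExpr (57415 regions kept), TMM scaling (0.8023 and 0.8584 for PB3-ERI-R, 1.036 to 1.09 otherwise), then the quasi-likelihood fit over 8 libraries, each line a term; the common biological coefficient of variation was 0.161. p-values were Benjamini-Hochberg adjusted over all regions, with calls under 0.05. Tested on simulated data for PB3-VIN-R against PB3-Parental (57414 regions), it recovered 54 of 100 regions changed 2-fold and 100 of 100 changed 4-fold, with 5 false calls. The changed regions were drawn only from those above a minimum mean count, and each region had the same mean in all lines before the change. Many ERI-only regions had few counts outside PB3-ERI-R, so these rates do not carry over to them. Each region went to the nearest of 21900 RefSeq protein-coding genes within 50 kb. The annotation table has no strand, so gene ends stand in for starts; promoter windows came from a separate RefSeq table holding 17492 genes. Genes named are, by rule, those with the 10 highest levels in PB3-ERI-R, the most ERI-only regions, up to 2 regions per list, the 5 highest levels outside PB3-ERI-R, the smallest adjusted p among the other lines, the longest runs, and Cdkn2a, Cdkn2b, Cdh1, Epcam, Esr1, Pgr and Erbb2; further genes shown for list counts were chosen after their values were seen, and a few genes that the rule names are not reported here. Alternatives were RLE or no scaling, loess offsets, DESeq2 1.42.0, a replicate block, leaving out each library, and other thresholds for membership and gene ends.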

Additional observations from a re-analysis of the deposited data

How the results depend on the processing

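Calls against PB3-ERI-R stayed within 1.5 times under every alternative run: 9527 to 9651 against PB3-Parental, 9554 to 9658 against PB3-PAC-R and 9571 to 9664 against PB3-VIN-R when 1 library was left out. With loess offsets, 7726 were called against PB3-Parental, 137 of them lower, and the median log2 fold change was 2.65; with no scaling factor, 9469 were higher and 1 lower. The shared regions at genes rich in ERI-only regions gave 414 calls, 359 to 418 with 1 library left out and 1061 of 1654 regions when genes with 3 or more were taken, where the share called higher was 53.6% in place of 57.8%. Among the other lines, 91 ERI-only regions were called for PB3-VIN-R against PB3-Parental, 47 with loess offsets, 203 with DESeq2 and 5 to 232 with 1 library left out. For PB3-PAC-R against PB3-Parental the 8 calls became 3 with DESeq2's size factors, with no scaling factor or with loess offsets, 47 with DESeq2 and 0 to 28 with 1 library left out. For PB3-VIN-R against PB3-PAC-R the 3 calls became 29 with DESeq2 and 0 to 11 with 1 library left out. The labels' replicate numbers are not said to pair libraries; same-numbered libraries deviated together with correlations of 0.0729 to 0.446, and a replicate block gave 595, 114 and 66 calls in these 3 comparisons; at Egr1 the block gave an edgeR adjusted p of 2.1e-08 in place of 0.0967. The cause of these shifts was not tested.

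Requiring a peak score of 1000, the list's median, left 6203 ERI-only regions, and under 1 CPM in each other line left 3853. The share near a gene end was 7.59% without regions that had another line's peak within 500 bp, 4.41% with each other line under 1 CPM, and 12.3% at 2 kb. The share with no parental counts, 0.34%, became 0.856% with each other line under 1 CPM. Depth limits levels near 0: a floor of 3 counts over both libraries is 0.0948 CPM in PB3-Parental and 0.0597 CPM in PB3-VIN-R.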
